A study of Mus musculus with 6 samples.

Results

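The genes described are 10 that carry signals of the tumour necrosis factor (TNF) receptors: the receptors Tnfrsf1a and Tnfrsf1b, the adaptors Traf1, Traf2 and Traf3, the inhibitor of apoptosis (IAP) genes Birc2 and Birc3, the caspase-8 regulator Cflar, the ubiquitin-binding protein gene Tnip1 and the kinase gene Ripk1. They were taken by name, and each was read from the brightest probe set that the array annotation gives to that symbol alone. This found 8 of the 10 among 9361 genes tested, and all 8 passed the signal filter. Traf3 and Ripk1 had no probe set under their symbol in the annotation used and are not analysed here. Messenger RNA was measured with Affymetrix Mouse Genome 430 2.0 arrays in 2 populations of cultured mouse mammary tumour cells. HML2 cells (3 arrays) were derived from E0771 through 2 rounds of growth in the mammary fat pad of C57BL/6 mice and recovery from their lungs. Parental E0771 cells (3 arrays) are the unselected line, also of C57BL/6 origin. Both were cultured for 3 days with 10% serum and neither carries a named transgene or received a drug. The labels call the 3 cultures of each group biological replicates without saying whether they come from different animals, nor whether the HML2 cultures are of 1 selected population or several. The p-values therefore cover only the variation among the cultures used, which may be technical.

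When TNF binds its type 1 receptor, the adaptor TRADD, the kinase RIPK1, TRAF2 and the cellular IAP ligases gather at the receptor's tail. Ubiquitin chains made there attract the kinases that switch on the transcription factor NF-kB. When the complex instead passes to caspase-8 or to RIPK3, the cell dies by apoptosis or by necroptosis, and the protein encoded by Cflar holds caspase-8 back. In mammary tumour cells the balance between these outputs bears on survival and on the release of inflammatory signals.

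The adaptor gene Traf1 and the feedback gene Tnip1 were higher in HML2 cells, Cflar was lower, and the receptor and IAP genes did not pass the test. Differences are HML2 minus parental means of log2(signal + 50), tested with limma, and a gene was called at a Benjamini-Hochberg adjusted p below 0.05 over all genes tested. Of the 8 genes, 2 were higher and 1 lower, and 5 were not called. Over all genes tested, 27.2% were called, 12.3% higher and 14.9% lower. With 8 genes, 3 calls lie near that background share, so the list as a whole is described only by its members. The median difference of the 8 genes was 0.24, against -0.019 for all genes tested. A fit with replicate number as a block called the same 3 genes, and 37.4% of all genes. Without HML2 replicate 1 the median of the 8 was -0.10.

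The first replicate stood apart in both populations. The signal of 6 of the 8 genes was highest on replicate 1 among the HML2 arrays, and the same 6 were highest on replicate 1 among the parental arrays. Over all genes, 24.8% had their highest value on replicate 1 in both groups. Each array had been scaled to the same trimmed mean, and between 39.6% and 41.5% of the probe sets of an array were at 100 or above. The 3'-to-5' signal ratio of beta-actin, a gauge of RNA integrity, was 1.36 to 1.39 on HML2 arrays and 1.41 to 1.53 on parental arrays. For Gapdh it was 0.77 to 0.816 on HML2 arrays and 0.799 to 0.803 on parental arrays. The part of RNA integrity in the differences below was not tested. Bacterial Trp control probe sets, which should not detect mouse RNA, reached at most 14.1 to 26.5 on HML2 arrays and 18.3 to 36.2 on parental arrays, and serve as a gauge of background. The keratin gene Krt8 was bright in both populations, at 4175 ± 650 in HML2 cells and 1095 ± 60.3 in parental cells (SD, n = 3 each), a log2 difference of 1.87 that was called. Another epithelial marker, Elf3, was 114 ± 16.1 in HML2 cells and 131 ± 13.5 in parental cells. Of 8 epithelial markers, 3 were above the Trp controls on all arrays. Epcam read 82.8, 68.9 and 98.9 on HML2 arrays, against 134, 108 and 157 on parental arrays, and was not called. Its other probe set was called lower (-1.82) in a fit of all probe sets. That probe set read 9.93, 27.6 and 47.0 on HML2 arrays, against 260, 239 and 174 on parental arrays. It passed the signal filter through its parental arrays and was not fitted without the filter. Cdh1 and Krt19 were at or below the Trp controls on most arrays. Of 10 leukocyte markers, 6 were above the Trp controls on all arrays. The summed signal of the 10 was 1641 to 2031 on HML2 arrays and 923 to 1113 on parental arrays. A large part of that sum was 1 gene, Laptm5, at 1184, 1078 and 1310 on HML2 arrays, against 308, 236 and 389 on parental arrays. Laptm5 was higher in HML2 cells (1.80), the macrophage gene Lyz2 was lower (-0.91), and Coro1a, at 0.020, was not called. Cd68, Csf1r and Adgre1 were also above the Trp controls on all arrays. Cd3e was at or below the Trp controls on all arrays and Ptprc on 5 of 6. Itgam exceeded them on 1 parental array, and Cd79a on 1 array of each group. The summed signal of 8 lung epithelium markers, Sftpb and Cldn18 the brightest, was 213 to 339 on HML2 arrays and 221 to 315 on parental arrays. That of 8 endothelial markers, Icam2 and Kdr the brightest, was 287 to 413 on HML2 arrays and 120 to 224 on parental arrays, with Pecam1 and Tie1 at or below the Trp controls on all arrays. Icam2 was at least 6.95-fold higher in HML2 cells. The part of other cells' RNA in the differences below was not tested.

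**Figure D1:**
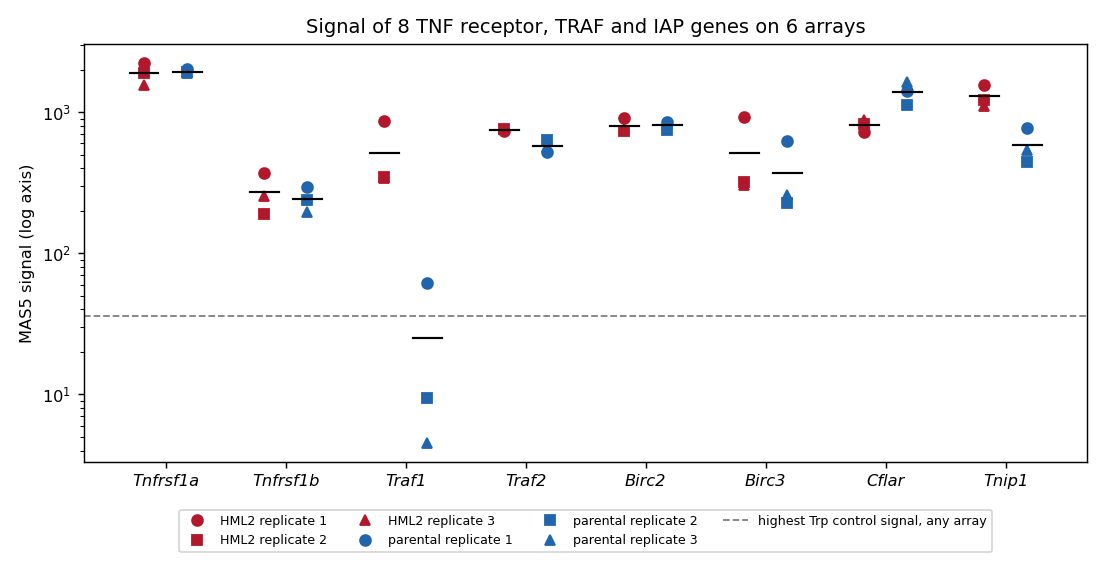
MAS5 signal (log axis) of the 8 measured genes, with HML2 arrays left of parental arrays, 1 symbol per replicate and a black line at each group's mean. Traf1 lies between 343 and 859 on HML2 arrays and at 61.3 or less on parental arrays, and Traf1 is the gene with parental signals below the highest Trp control (dashed).

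Among the receptors, Tnfrsf1a encodes the TNF receptor with a death domain that most cells carry. Its signal was 2228, 1891 and 1555 on HML2 arrays 1 to 3, against 2003, 1918 and 1894 on parental arrays 1 to 3. The HML2 values spread to both sides of the parental ones. The log2 difference was -0.049 ± 0.15 (SE) with a 95% interval of -0.39 to 0.29 (adjusted p = 0.84). Tnfrsf1b encodes the second TNF receptor, which has no death domain and binds TRAF2 directly. It read 369, 189 and 254 on HML2 arrays, against 293, 238 and 196 on parental arrays, and the groups overlapped. Its difference of 0.11 ± 0.24 had an interval of -0.43 to 0.65 (adjusted p = 0.77). The sign of both small differences depended on single arrays: without HML2 replicate 3 that of Tnfrsf1a was 0.081, and without HML2 replicate 1 or parental replicate 3 that of Tnfrsf1b was -0.10 or -0.0090. A second Tnfrsf1b probe set had a mean signal of 65.5 and was not tested.

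Traf1 had the largest difference of the 8 genes. It encodes a TRAF protein that lacks the RING finger of its relatives and joins complexes of TRAF2 and the cellular IAPs. Its signal was 859, 346 and 343 on HML2 arrays, against 61.3, 9.37 and 4.55 on parental arrays. The groups were far apart, replicate 1 was the highest in each, and parental replicates 2 and 3 were below the Trp controls of their own arrays. The mean was 516 ± 297 in HML2 cells and 25.1 ± 31.5 in parental cells (SD, n = 3 each), and the parental mean lies near the level of the Trp controls, so no fold of the means is given. On the log2(signal + 50) scale, which understates changes of dim genes, the difference was 2.87 ± 0.39 (adjusted p = 0.0014). A second probe set of Traf1 gave 505, 190.1 and 239 on HML2 arrays, against 29.5, 36.0 and 25.6 on parental arrays. It differed by 2.07 ± 0.30 in a fit of all probe sets (adjusted p = 0.0016). Its parental signals were also near the Trp controls, and that of replicate 2 was below those of its own array. Without HML2 replicate 1 the difference of the first probe set was 2.47. Both probe sets passed the filter on mean signal through their HML2 arrays. In a fit without that filter, in which 11.9% of 18193 genes were called, the first had an adjusted p of 0.0036. The second was not fitted without the filter.

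The promoter windows of 4 genes are shown because they belong to the 3 called genes and to Traf2, whose arrays did not overlap between groups. They run from 250 bases before the start to 50 after it, 5′ to 3′ on the gene's strand, from RefSeq on GRCm38.p6. Capitals mark a match to a strict motif (GGG, any 2 bases, then TTTCC) or to the kB consensus, the general sequence bound by NF-kB dimers, which was added after the strict motif was looked at. All 10 listed genes matched at least 1 window in the RefSeq table, 12 windows in all. The windows lie at chr2:34961723-34962022 (minus strand, Traf1), chr11:54962891-54963190 (minus strand, Tnip1), chr2:25546891-25547190 (minus strand, Traf2) and chr1:58711241-58711540 (plus strand, Cflar).
Traf1: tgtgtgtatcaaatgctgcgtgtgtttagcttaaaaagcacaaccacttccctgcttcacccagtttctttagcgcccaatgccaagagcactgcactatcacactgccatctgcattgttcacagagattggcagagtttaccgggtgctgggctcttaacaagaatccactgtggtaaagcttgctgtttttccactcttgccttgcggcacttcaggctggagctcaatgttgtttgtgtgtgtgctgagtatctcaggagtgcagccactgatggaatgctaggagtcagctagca
Tnip1: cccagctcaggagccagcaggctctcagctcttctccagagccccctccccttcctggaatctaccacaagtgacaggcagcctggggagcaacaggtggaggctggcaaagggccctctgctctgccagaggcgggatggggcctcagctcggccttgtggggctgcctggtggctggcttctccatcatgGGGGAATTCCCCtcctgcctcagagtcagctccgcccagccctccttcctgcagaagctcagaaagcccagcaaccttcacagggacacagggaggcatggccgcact
Traf2: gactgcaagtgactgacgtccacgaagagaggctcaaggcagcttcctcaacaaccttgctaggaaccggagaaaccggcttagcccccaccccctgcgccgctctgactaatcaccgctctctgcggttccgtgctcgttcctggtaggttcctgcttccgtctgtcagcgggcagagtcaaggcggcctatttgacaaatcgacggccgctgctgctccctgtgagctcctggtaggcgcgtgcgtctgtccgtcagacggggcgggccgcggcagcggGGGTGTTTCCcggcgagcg
Cflar: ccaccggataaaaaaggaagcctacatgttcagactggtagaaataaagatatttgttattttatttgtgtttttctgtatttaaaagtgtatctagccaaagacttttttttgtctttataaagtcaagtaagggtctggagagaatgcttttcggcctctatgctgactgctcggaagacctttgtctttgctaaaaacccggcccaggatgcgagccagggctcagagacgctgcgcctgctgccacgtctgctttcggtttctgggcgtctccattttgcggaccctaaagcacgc
The strict motif, searched on both strands, was present in 1.63% of 32851 RefSeq promoter windows and in 2 of the 12 windows of the listed genes, those of Traf2 and the unmeasured Traf3. In Traf2 it started at base 32 after the start of transcription. The kB consensus was present in 8.46% of all windows and in 2 of these 12, those of Tnip1 and Traf3. In Tnip1 it matched on both strands around position -58, where several overlapping matches form 1 stretch. A looser motif (GGG, any 5 bases, then CC), which overlaps every match of the other motifs, was present in 50.8% of all windows and in 8 of the 12. The Traf1 window held none of the 3, which says only that these letters are not in this window. The windows of Traf1 and Tnip1 had 4 CpG dinucleotides each, Cflar had 12 and Traf2 had 28, against a median of 7 over all windows.

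Traf2 encodes the adaptor that brings the cellular IAPs to the TNF receptors. It read 730.2, 756 and 761 on HML2 arrays, against 520.2, 632 and 562 on parental arrays. Every HML2 value was above every parental one, as was the case in 1 direction or the other for 4 of the 8 genes and for 44.4% of all genes. The means were 749 ± 16.5 in HML2 cells and 572 ± 56.5 in parental cells. The difference of 0.37 ± 0.13 was not called (adjusted p = 0.076), with an interval of 0.061 to 0.67. With array weights it was 0.39 and was called (adjusted p = 0.0049).

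**Figure D2:**
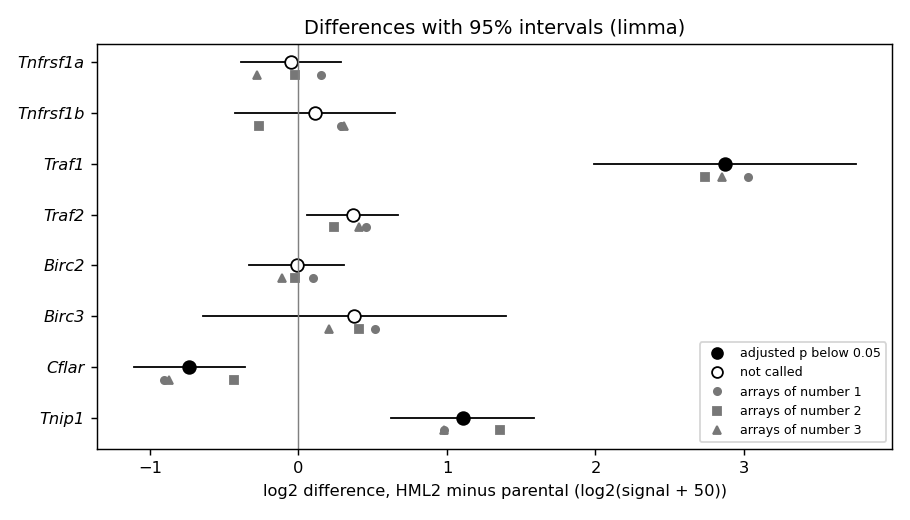
Log2 differences (HML2 minus parental, log2(signal + 50)) of the 8 genes with their 95% intervals from limma. Filled circles passed an adjusted p of 0.05, and the small grey symbols are the differences between arrays of the same replicate number. Traf1 (2.87) and Tnip1 (1.10) lie right of 0 and Cflar (-0.74) left of it.

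The cellular IAP genes Birc2 and Birc3 encode ubiquitin ligases that modify RIPK1 and restrain the alternative NF-kB pathway. They are close relatives and neighbours on the same chromosome. Birc2 read 910.4, 734 and 761 on HML2 arrays, against 848, 746 and 825 on parental arrays. The groups overlapped, and the difference was -0.012 ± 0.14 with an interval of -0.33 to 0.31 (adjusted p = 0.96). Its sign turned under quantile normalization (0.031) and median centring (0.047), and it lay between -0.10 and 0.045 when single arrays were left out.

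Birc3 varied more between replicates than between populations. It read 917, 319 and 303 on HML2 arrays, against 626, 228 and 257 on parental arrays. Replicate 1 was high in both groups, by 1.42 above the mean of the other HML2 arrays and by 1.21 above that of the other parental arrays on the log2 scale. Between arrays of the same number the differences were 0.52, 0.41 and 0.20, all in 1 direction. The unpaired difference of 0.37 ± 0.45 was not called (adjusted p = 0.57), and its interval of -0.64 to 1.39 is wide. It was -0.10 without HML2 replicate 1, 0.78 without parental replicate 1, 0.14 without parental replicate 2 and 0.21 without parental replicate 3. Without HML2 replicate 2 or 3 it was 0.60 or 0.63. A second Birc3 probe set had a mean signal of 41.1 and was not tested.

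**Figure D3:**
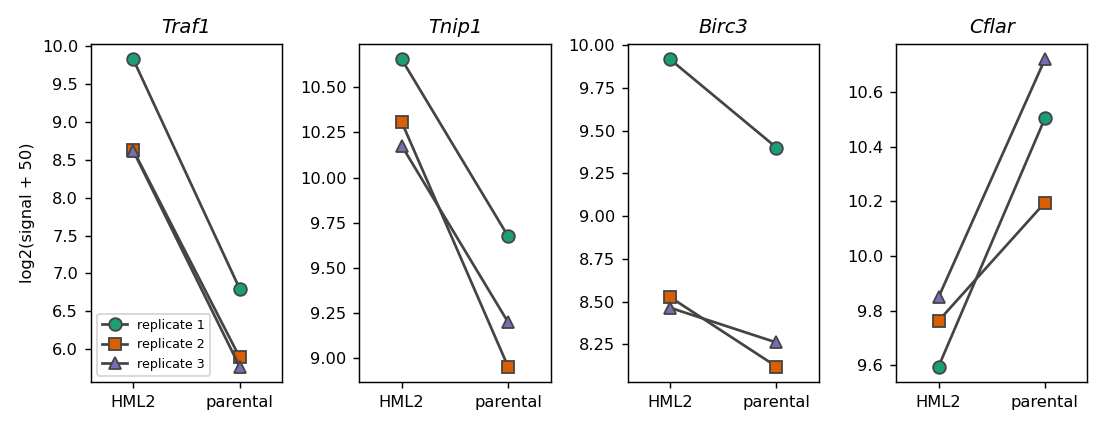
Log2(signal + 50) of Traf1, Tnip1, Birc3 and Cflar, with HML2 left and parental right in each panel and lines joining arrays of the same replicate number. The vertical scale differs between panels. Replicate 1 of Birc3 lies above replicates 2 and 3 in both populations, while for Traf1 and Tnip1 every HML2 array lies above every parental array and for Cflar every one lies below.

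Cflar encodes cellular FLIP, a caspase-like protein without protease activity that binds the adaptor FADD and caspase-8. Its signal was 724, 819 and 872 on HML2 arrays, against 1402, 1122 and 1636 on parental arrays. All HML2 values were below all parental values. The mean was 805 ± 75.3 in HML2 cells and 1386 ± 257 in parental cells, a log2 difference of -0.74 ± 0.16 (adjusted p = 0.012). The call was lost without parental replicate 3, at a difference of -0.61 (adjusted p = 0.060). Of 2 further probe sets that passed the filter, 1 was called lower (-0.68 ± 0.20, adjusted p = 0.037) and the other, at -0.38 ± 0.18, was not (adjusted p = 0.15). A dimmer probe set ran the other way, with 64.6, 59.0 and 84.2 on HML2 arrays, against 39.6, 30.3 and 52.1 on parental arrays. Another had a mean signal of 11.7 and exceeded the Trp controls on 1 of 6 arrays. Neither of these dim probe sets was tested.

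**Figure D4:**
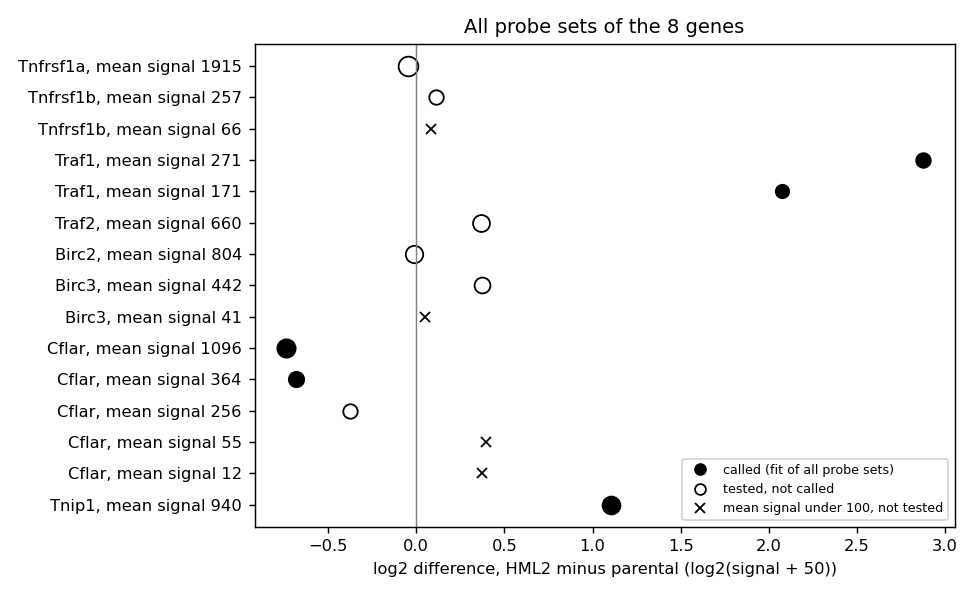
Log2 differences (HML2 minus parental, log2(signal + 50)) of every probe set of the 8 genes, labelled with its mean signal over 6 arrays. Circles, larger for brighter probe sets, were tested in a fit of all probe sets and are filled where called, and crosses had a mean signal under 100. Both Traf1 probe sets lie at 2.07 or above, and 3 Cflar probe sets lie below 0 while the 2 dim ones lie above it.

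Tnip1 encodes ABIN-1, which binds ubiquitin chains and the deubiquitinase A20 and dampens NF-kB signalling. Its signal was 1563, 1218 and 1107 on HML2 arrays, against 767, 445 and 538 on parental arrays. The lowest HML2 array was above the highest parental one. The mean was 1296 ± 238 in HML2 cells and 583 ± 166 in parental cells, a log2 difference of 1.10 ± 0.21 (adjusted p = 0.0063). Leaving out single arrays gave 0.94 to 1.30, called each time. Differences between arrays of the same number were 0.98, 1.36 and 0.98.

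The ligands were mostly at low signal in both populations. Of 18 TNF superfamily ligand genes listed, 14 had a probe set and 1 passed the filter, Tnfsf13b, which encodes the B cell factor BAFF, with a difference of 0.55 ± 0.26 (adjusted p = 0.15). It was 0.77 without HML2 replicate 1 and 0.91 with array weights, and was called in both. Tnf itself, singled out after its values were seen, had a mean signal of 60.8 and lay below the filter. It read 182, 57.3 and 106 on HML2 arrays, against 6.33, 5.04 and 8.20 on parental arrays. All HML2 arrays were above their Trp controls and all parental arrays below theirs. Against the higher of the Trp control and its own signal on each parental array, Tnf was at least 4.36-fold higher in HML2 cells. In the fit without the filter it differed by 1.48 ± 0.27 (adjusted p = 0.011), and it was the 1 called gene of the 14 ligand genes there. The other receptors of the family had 25 genes with a probe set, of which 4 were tested, 1 was higher and 0 were lower. The higher one was Cd40, a receptor that signals through TRAF proteins, at 573 ± 174 in HML2 cells and 115 ± 30.9 in parental cells (1.90 ± 0.24, adjusted p = 9.6e-04). In the fit without the filter 2 of the 25 were higher, Cd40 and Tnfrsf22, which was named after its values were seen. Tnfrsf22, a decoy receptor gene of the mouse, read 176, 187 and 134 on HML2 arrays, against 31.5, 5.58 and 38.3 on parental arrays (1.54, adjusted p = 0.0057), and was below the filter. Its 2 other probe sets had differences of -0.10 and 0.23 and were not tested. Tnfrsf12a, the receptor of TWEAK and the brightest of them, had a difference of -0.057 (adjusted p = 0.83).

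Relatives of the TRAF and IAP genes went both ways. Of 11 other TRAF and TRAF-binding genes tested, 2 were higher and 3 lower, with a median of 0.11, where 12.3% of all genes were higher and 14.9% lower. Traf5, an adaptor close to TRAF2, read 139, 116 and 106 on HML2 arrays, against 411, 288 and 381 on parental arrays, a difference of -1.26 ± 0.18 (adjusted p = 0.0020). The intraflagellar transport gene Traf3ip1 (-1.08) and Trafd1 (-0.94) were also lower, and Traf4 (0.59) and Mul1 (0.55), named to complete the count, were higher. The calls of Trafd1, Traf4 and Mul1 were lost with fewer arrays while the differences stayed of like size. That of Trafd1 was lost without parental replicate 1 (-0.82) or 3 (-0.87). That of Traf4 was lost without any array but HML2 replicate 2 (differences of 0.45 to 0.72 over all 6), and that of Mul1 without HML2 replicate 3 or any parental array (0.51 to 0.60 over all 6). Among 10 other IAP genes and their antagonists, 0 were higher and 3 lower, with a median of 0.033. Over all genes, 12.3% were higher and 14.9% lower, or 27.2% in either direction. All 3 were Naip genes, whose products carry IAP repeats and sense bacterial proteins. Naip5 was 20.0, 0.824 and 1.14 on HML2 arrays, against 262, 170.0 and 251 on parental arrays, at least 11.3-fold lower against the Trp controls (adjusted p = 4.1e-04). Naip6 differed by -1.39 and Naip2 by -0.97. Naip5 and Naip6 passed the filter through their parental arrays, and in the fit without it their adjusted p-values were 9.6e-04 and 0.0035. Naip genes are near-identical copies, so probe sets may share signal between them. The call of Naip2 was lost without HML2 replicate 2 (-0.96) or 3 (-0.77) or parental replicate 1 (-0.78) or 3 (-0.97).

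Kinase and ubiquitin ligase genes around the receptor complex had 3 higher and 1 lower of 14 tested, with a median of 0.059, also near the 27.2% of calls over all genes. Tradd, the adaptor that docks on TNF receptor 1, was 701 ± 45.4 in HML2 cells and 346 ± 80.0 in parental cells (0.94 ± 0.18, adjusted p = 0.0064). A second Tradd probe set had 0.59 and was not called. Ube2d3, a ubiquitin-conjugating enzyme gene, was higher (0.79), as was the kinase gene Ikbke (0.67), named to complete the count. The call of Ikbke was lost without HML2 replicate 2 (0.65), parental replicate 1 (0.70) or parental replicate 3 (0.57). With the mean of all passing probe sets, Tradd (0.77) and Ube2d3 (0.32) were not called, and Ikbkg, described next, was -0.56. The lower gene was Ikbkg, which encodes the NEMO subunit of the IKK complex, at 475 ± 95.1 in HML2 cells and 1319 ± 324 in parental cells (-1.37 ± 0.20, adjusted p = 0.0021). Of its 5 other probe sets, 2 were called lower (-0.75 and -0.62) and 3 were not called, at -0.44, -0.31 and 0.13.

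Deubiquitinases and feedback genes that act with Tnip1 had 2 higher and 0 lower of 11 tested, with a median of 0.048. Over all genes, 12.3% were higher and 14.9% lower. Tnfaip3, which encodes A20, read 623, 275 and 296 on HML2 arrays, against 125, 130.3 and 93.3 on parental arrays (1.36 ± 0.28, adjusted p = 0.0091). A second Tnfaip3 probe set, with a mean signal of 30.4, had a difference of -0.10 and was not tested. Spata2, which links the deubiquitinase CYLD to the receptor complex, differed by 0.57. Its call was lost without HML2 replicate 2 (0.59), parental replicate 2 (0.49) or parental replicate 3 (0.59). With the replicate number as a block, 2 genes of this list were higher and 1 lower, the lower being Usp21 (-0.58, adjusted p = 0.034).

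In the death arm, 2 genes were higher and 1 lower of 10 tested, with a median of 0.26, again near the 27.2% of calls over all genes. Ripk3, the kinase of necroptosis, read 6.87, 5.27 and 4.15 on HML2 arrays, against 418, 313 and 290.1 on parental arrays. It was at or below the Trp controls on every HML2 array, at least 17.0-fold lower (adjusted p = 6.6e-05). Its fitted log2 difference of -2.80 depends on the offset, since the HML2 signals are background. Ripk3 passed the filter through its parental arrays, and in the fit without the filter its adjusted p was 1.9e-04. Mlkl, the membrane-disrupting protein that RIPK3 phosphorylates, moved the other way, at 5041 ± 608 in HML2 cells and 2034 ± 473 in parental cells (1.31 ± 0.17, adjusted p = 0.0013). Casp6, an effector caspase gene, differed by 0.61, and its call was lost without HML2 replicate 2 (0.62) or 3 (0.53) or parental replicate 1 (0.64) or 2 (0.50). Casp8, the protease that Cflar restrains, differed by -0.28 ± 0.11, which was not called (adjusted p = 0.11). Of 8 NF-kB subunit and IkB genes tested, 6 were higher and 0 lower, with a median of 1.29, where 12.3% of all genes were higher. By the brightest probe set, the differences of Nfkbie (2.52), Bcl3 (1.40) and Nfkbiz (1.36) were the largest. The call of Bcl3 was lost without HML2 replicate 3 (1.42) or parental replicate 2 (1.07), and that of Nfkbiz with the mean of its probe sets (0.66). Nfkb2 and Relb, named to complete the count, had differences of 1.06 and 1.33 and lost their calls without parental replicate 2 (1.09 and 1.16) or 3 (0.88 and 1.25). A second Nfkb2 probe set, with a mean signal of 224, differed by 0.11 ± 0.27 in the fit of all probe sets and was not called (adjusted p = 0.81). The last of the 6 was Nfkbia, at 1.26, whose 4 other probe sets were called at 1.21, 1.61, 1.72 and 2.08.

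**Figure D5:**
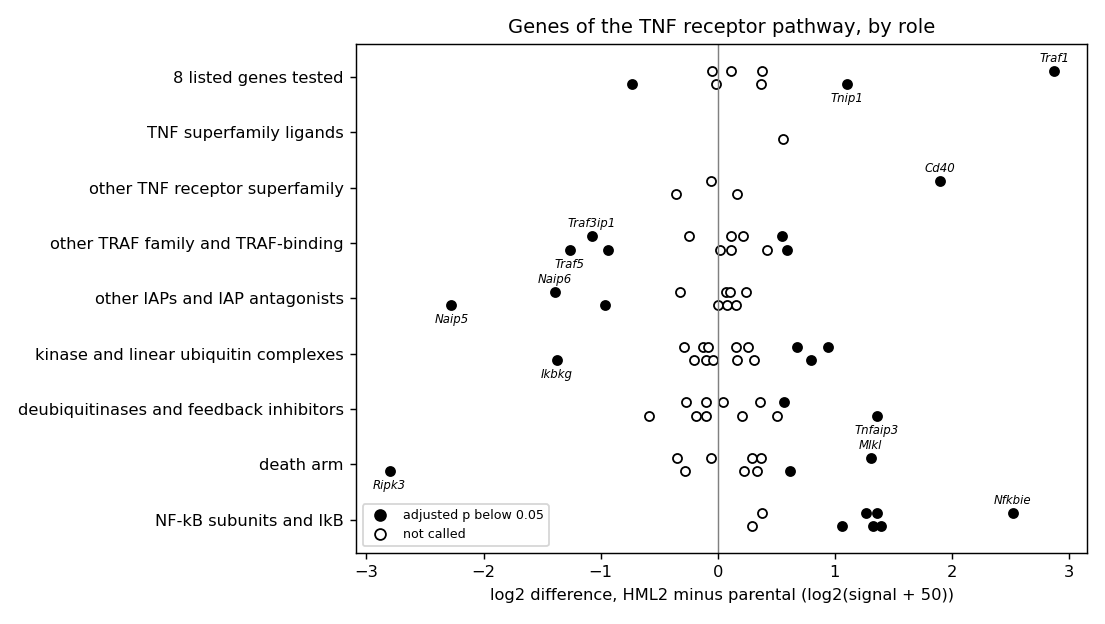
Log2 differences (HML2 minus parental, log2(signal + 50)) of the tested genes, by role, 1 circle per gene, filled where the adjusted p was below 0.05. Called genes beyond 1 in size are named, for the NF-kB row only Nfkbie. Traf1 (2.87) and Ripk3 (-2.80) lie at the 2 ends.

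The genes whose pattern over the 6 arrays lay nearest to that of Traf1, each centred on its own mean, were Upp1, Icam1, Nfkbie, St14 and Cxcl3. Their root mean square distances to Traf1 were 0.26 to 0.38 on the log2 scale, and their differences were 2.26 to 2.81. Their likeness to Traf1, the high replicate 1 included, follows from how they were chosen. Icam1, an adhesion molecule gene, read 1692, 698 and 666 on HML2 arrays, against 260.0, 83.0 and 127 on parental arrays.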

How the data were processed

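Total RNA (15 ug per culture, per the labels' protocols) was hybridised to 1 array per culture, 3 HML2 and 3 parental. The deposited values are linear intensities, which the submitters' processing notes credit to MAS5. Its version was not given in the sources used here. The mean after trimming 2% at each end was 500.003 on each array, so any difference in total messenger RNA is removed. There were no detection calls. Of 45101 probe sets, 64 were controls, 34945 had 1 symbol in the annotation, 932 had several and 9160 were not listed. Of the single symbols, 34741 matched the RefSeq gene table (GRCm38.p6).

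Signals were taken as log2(signal + 50). Only probe sets whose signal averaged 100 or more entered, and the brightest by mean log2 represented its gene, which left 9361 of 18193 genes. Groups were compared with limma 3.58.1 (R 4.3.3, eBayes with trend), adjusted by Benjamini-Hochberg, after testing on simulated data. The number of arrays limits the precision. Lists were written from general knowledge. Members and lists were chosen with earlier results of these data known. Besides the listed genes, the text names up to 3 called genes per list with the largest differences, filled to 2 with the brightest, the 2 brightest of each marker list, the 5 genes nearest to Traf1 in pattern and called genome neighbours. Tnf, Tnfrsf22, Traf4, Mul1, Ikbke, Casp8, Usp21, Nfkbib, Nfkb2, Relb, Nfkbia, Yap1 and the markers Epcam, Cdh1, Krt19, Lyz2, Ptprc, Cd3e, Pecam1 and Tie1 were named after their values were seen. So were the leukocyte markers Cd68, Csf1r, Adgre1, Itgam and Cd79a. Arrays of the same replicate number had correlated deviations from their group means (0.45, 0.34 and 0.24, all above 0.1), though the labels do not say what the number marks. Between arrays of different numbers the correlations were -0.38 to 0.24. The highest of these, HML2 3 with parental 2 (0.241), was slightly above that of HML2 3 with parental 3 (0.239). The match by number is therefore not clear for replicate 3. The replicate number entered as a block in an alternative only.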

Additional observations from a re-analysis of the deposited data

How the results depend on the processing

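The 8 genes were refitted under 15 alternatives: offsets of 16 and 100, no filter and a filter of 200, quantile normalization, median centring, the replicate number as a block, array weights, the mean of probe sets, and each array left out. Traf1 stayed called (2.23 to 3.82), as did Tnip1 (0.94 to 1.30). Cflar lay between -0.88 and -0.60 and was not called without parental replicate 3 (-0.61). Left-out arrays gave 2 higher genes each time and 0 to 1 lower genes, and a median of -0.10 to 0.33. With the replicate block, 2 genes were higher and 1 lower as before, Birc3 had an adjusted p of 0.075 and Traf2 of 0.056. The block changed no call of the 8 genes, nor of the other genes described except Usp21 and the NF-kB list, where Nfkbib (0.37, adjusted p = 0.049) made 7 higher genes. With array weights Traf2 was called (0.39), which gave 3 higher genes, and Tnfsf13b, Usp21, Nfkbib and Casp8 were called as well. The sign of small differences turned for Tnfrsf1a with median centring (0.010) and Birc2 with quantile normalization (0.031) and median centring (0.047). With left-out arrays, Tnfrsf1a lay between -0.17 and 0.081, Tnfrsf1b between -0.10 and 0.30, Birc2 between -0.10 and 0.045 and Birc3 between -0.10 and 0.78. Without the filter Bcl3, Nfkb2, Ikbke, Mul1 and Traf4 were not called (adjusted p = 0.053, 0.052, 0.080, 0.067 and 0.11). Causes were not tested. Over all genes, calls ranged from 590 higher and 795 lower without parental replicate 3 to 2422 higher and 2631 lower with array weights, against 1155 and 1395. Median centring moved the median of all genes to 0.040 and gave 1357 higher and 1178 lower. On 2 parental arrays Traf1 was below the Trp controls, so the size of its difference is uncertain.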

Other observations

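The genome surroundings of the 8 genes were read from the 3 nearest tested genes on each side. None of the 6 neighbours of Traf1, which had differences of -0.18 to 0.39, was called. Around Cflar, 3 of 6 neighbours were lower: the NADH dehydrogenase subunit gene Ndufb3 (-0.86), Trak2 (-0.71) and Fam126b (-0.59). On chromosome 1, where Cflar lies, 181 of 521 tested genes were lower (34.7%) and 21 higher, with a median difference of -0.32, against 14.9% lower over all genes. On chromosome 2, which carries Traf1 and Traf2, 114 of 784 were lower and 92 higher, and on chromosome 11, which carries Tnip1, 81 of 782 were lower and 90 higher.

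Around Birc2 and Birc3 the neighbours differed among themselves. The collagenase gene Mmp1a (1.34) and the stromelysin gene Mmp10 (2.04) were higher, Cfap300 (-0.88) was lower, and Yap1 (-0.31), the coactivator gene next to Birc3, was not called (adjusted p = 0.086). The other called neighbours were Cd9 (0.47) and Ndufa9 (0.46) beside Tnfrsf1a, Zfp979 (1.22) beside Tnfrsf1b, Npdc1 (-0.63) and Phpt1 (-0.45) beside Traf2, and Sparc (-2.12) beside Tnip1. Whether position has a part in any of these differences was not tested.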
